A study of Saccharomyces cerevisiae with 12 samples.

Results

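A set of 10 genes of the outer yeast cell wall was followed through wild type (WT) and tup1(S649F) cells of both mating types: the PIR genes PIR1, PIR3, HSP150 and CIS3, the transglycosylase genes CRH1 and UTR2, the genes PST1, SED1 and SPI1 for proteins with a lipid anchor, and YGP1 for a secreted glycoprotein. They are 10 of the 6219 genes in the table of read counts, and all 10 were found there by their systematic names and passed the filter on low counts. The genes were chosen by name with earlier results of both comparisons of tup1(S649F) against WT in view, so those fold changes are a description and carry no p-value here. The difference between those fold changes rests on the same values and is given in the same way. MATalpha was tested against MATa within WT and within tup1(S649F), contrasts that were not themselves used to list the genes. Both use libraries that also entered the comparisons in view. The contrast within tup1(S649F) is the difference between those fold changes plus the WT difference. Its p-values are therefore not independent of the choice of the genes.

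RNA was sequenced from log-phase Saccharomyces cerevisiae of the W303 background, in 4 groups of 3 replicates. The groups were WT MATa (strain DY150), WT MATalpha (DY3420), tup1(S649F) MATa (DY19304) and tup1(S649F) MATalpha (DY19306). All of them carry ade2-1, can1-100, his3-11,15, leu2-3, 112, trp1-1 and ura3-1, and all grew at 30 °C in YPA medium with 2% dextrose to an optical density of 0.6 to 0.8 at 660 nm. Each group is 1 strain and the labels do not say whether its replicates were separate cultures, so the errors and p-values measure the spread between these samples, which may be technical. The mutation is a single amino acid change that a count of TUP1 reads cannot show.

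The yeast wall is a network of beta-1,3-glucan, with beta-1,6-glucan, chitin and an outer layer of mannoproteins. PIR proteins (proteins with internal repeats) are bound to beta-1,3-glucan through a glutamine of the repeat, whereas proteins with a glycosylphosphatidylinositol (GPI) anchor are transferred to beta-1,6-glucan. The cell wall integrity pathway reads wall stress through membrane sensors, Pkc1 and the kinase Slt2, which acts on the transcription factors Rlm1 and SBF (Swi4 with Swi6). Tup1 with Cyc8 is a corepressor that DNA-binding proteins bring to promoters, among them Nrg1, Sko1 and the alpha2 and a1 mating-type proteins.

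The PIR repeat is what joins the first 4 genes as a family, so the first copy in each gene is shown, read on the coding strand from the R64 genome of RefSeq, which is that of strain S288C and may differ from W303. Capitals mark the codons at positions 5 to 7 of the repeat, where the last one is the glutamine codon. A search of the translated R64 coding sequences for the repeat signature found 8 copies in PIR1, 8 in PIR3, 11 in HSP150 and 1 in CIS3, and none in the other 6 genes.
PIR1, chrXI:142586-142618, minus strand: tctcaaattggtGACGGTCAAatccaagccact
PIR3, chrXI:144608-144640, plus strand: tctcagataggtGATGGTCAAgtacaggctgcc
HSP150, chrX:120671-120703, plus strand: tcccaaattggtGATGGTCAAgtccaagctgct
CIS3, chrX:122715-122747, minus strand: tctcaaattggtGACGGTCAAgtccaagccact

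Upstream sequence is shown for the 2 genes with the highest fold changes, for the genes with an Rlm1 element and for UTR2, the only one of the 10 that was lower in tup1(S649F). Sequence motifs were searched on both strands in the 500 bases before each start codon. In these R64 windows the 10-base elements in capitals of PIR3, HSP150, PST1 and SED1 are matches to the Rlm1 element, the capitals of UTR2 are the SCB element CGCGAAA bound by SBF, and AGGGG of PIR3 and CCCCT of SPI1 are the stress response element of Msn2 and Msn4 on the 2 strands.
PIR3, chrXI:144071-144300, plus strand: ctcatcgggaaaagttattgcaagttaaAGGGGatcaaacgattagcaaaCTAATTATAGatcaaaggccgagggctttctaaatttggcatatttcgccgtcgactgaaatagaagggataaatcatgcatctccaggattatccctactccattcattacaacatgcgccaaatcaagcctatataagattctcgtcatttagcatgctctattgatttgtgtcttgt
SPI1, chrV:468080-468149, plus strand: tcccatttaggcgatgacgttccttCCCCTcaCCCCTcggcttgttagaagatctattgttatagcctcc
HSP150, chrX:120196-120265, plus strand: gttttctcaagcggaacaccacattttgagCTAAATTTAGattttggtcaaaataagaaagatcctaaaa
PST1, chrIV:563192-563261, plus strand: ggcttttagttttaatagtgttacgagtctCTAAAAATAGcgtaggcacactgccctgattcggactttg
SED1, chrIV:600293-600362, plus strand: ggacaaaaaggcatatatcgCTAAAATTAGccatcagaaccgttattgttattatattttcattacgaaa
UTR2, chrV:77786-77855, plus strand: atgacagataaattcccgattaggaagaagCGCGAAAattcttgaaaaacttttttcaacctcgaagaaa

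The Rlm1 element was present upstream of 4 of the 10 genes and of 1.81% of 6006 promoters of the same length. Its copies began 280 bases before the start codon of PIR3, 223 before HSP150, 305 before PST1 and 480 before SED1. The SCB element was searched only as CGCGAAA. These letters were upstream of UTR2 alone among the 10, at 237 bases, and of 5.81% of all promoters. Other forms of the element were not searched. The stress response element AGGGG was upstream of 7 of the 10 genes and of 34.1% of all promoters, with 3 copies in SPI1 at 373, 265 and 258 bases. The letters AGGGG also lie within C-rich sites of Mig1 and Nrg1 type. These matches describe the letters of the windows and do not show binding. The 10 genes were chosen by name as wall genes, so their shares are a description and no test against all promoters.

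Library totals ran from 5657714 to 9300353 counts. Replicate 1 of tup1(S649F) MATa stood apart: its chi-square per degree of freedom against the other replicates of its group was 21 and 28.3, and the pair without it gave 4.08. The pairs of tup1(S649F) MATalpha gave 12.2, 8.26 and 7.4, and the pairs within the WT groups 1.4 to 2.68. Replicates of both mutant groups thus differed more than those of WT. The 7 a-specific and 4 alpha-specific marker genes matched the mating type label in all 6 WT and all 3 tup1(S649F) MATa libraries. In the 3 tup1(S649F) MATalpha libraries the alpha-specific genes summed to 7113 to 10634 CPM (counts per 1000000, after scaling of the libraries) against 2660 to 2927 in WT MATalpha, and the a-specific genes summed to 1819 to 2687 CPM against 25.07 to 26.26. The a-specific sum of these libraries was thus as high as in WT MATa cells, at 1805 to 1874 CPM. Single genes differed: against tup1(S649F) MATa, 4 of the 7 were called higher, 1 was called lower and 2 were not called. Of the 4 alpha-specific genes, 3 were called higher than in WT MATalpha and 1 was not called, with SAG1 going from 666.8 to 5295 CPM. The PIR genes share stretches of sequence: 7.16% of the 50-base words of PIR1, 10.8% of PIR3, 7.38% of HSP150 and 2.52% of CIS3 occur more than once in the genome. The handling of such reads in the authors' counting is not given in the sources used here, so the values of the PIR genes are uncertain between copies over these stretches. Of SED1, 4.75% of such words are repeated within the gene itself, and the other 5 genes have none.

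In WT cells the 10 genes covered a wide range of levels, given here in CPM per kilobase of coding length. In WT MATa, HSP150 was the highest at 1792, followed by SED1 at 1119, PIR1 at 1001 and CIS3 at 842.7. UTR2 at 577.3, CRH1 at 346.9 and PST1 at 155.7 stood in the middle of the order. YGP1 was at 63.23, SPI1 at 14.0 and PIR3 at 7.642, so the 4 PIR genes held both the highest and the lowest place. No 2 neighbours in this order overlapped in their 3 replicates, and WT MATalpha had the same order.

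The mating types of WT cells did not differ for any of the 10 genes at an adjusted p of 0.05, where 0.902% of all 5654 genes tested did (edgeR quasi-likelihood test, Benjamini-Hochberg adjustment over all genes, here and below). At an unadjusted p under 0.05 there were 2, SED1 (log2 difference of MATalpha from MATa 0.36 ± 0.11 SE, adjusted p = 0.147) and SPI1 (0.50 ± 0.18, adjusted p = 0.212), and DESeq2 called 0. The 3 WT MATalpha libraries all lay above the 3 WT MATa libraries for 5 genes, SED1, SPI1, HSP150, CRH1 and UTR2, as they did for 17.0% of all genes tested. These 5 passed when only the 6 WT libraries were fitted, where 19.7% of all genes were called, and SED1 (adjusted p = 0.00184) and SPI1 (adjusted p = 0.0345) also passed without replicate 1 of tup1(S649F) MATa. A failed call in the fit of all 12 libraries therefore does not show that the WT mating types had equal levels.

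In tup1(S649F) cells 9 of the 10 genes were higher than in WT in both mating types, and UTR2 was lower in both. The groups did not overlap for any of the 10 in either comparison, and they did not overlap for 50.4% of all genes tested in MATa and 68.5% in MATalpha. All 10 passed the threshold in MATa, where 41.4% of all genes tested passed, and all 10 in MATalpha, where 63.1% passed; nothing is read from these counts, since the genes were selected on these comparisons. Their median log2 fold change was 1.11 in MATa and 1.73 in MATalpha, and the median of all genes tested was -0.01 and -0.03. In bulk RNA, more RNA per cell and more cells expressing a gene cannot be told apart. Together the 10 genes took 0.66% ± 0.0158 (SD, n = 3) of the reads in WT MATa and 1.3% ± 0.0942 in tup1(S649F) MATa. In MATalpha their share was 0.725% ± 0.0255 in WT and 1.77% ± 0.0991 in tup1(S649F).

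**Figure D1:**
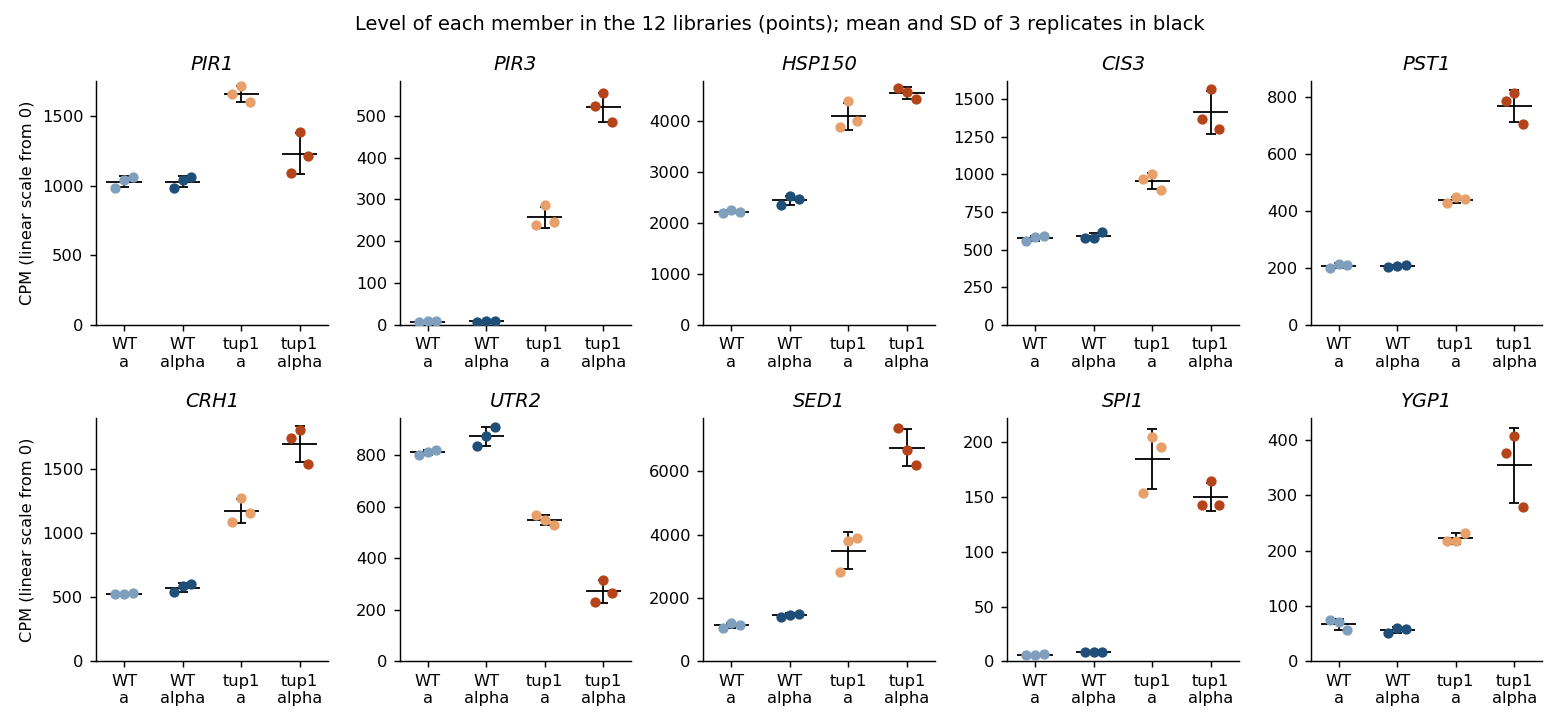
Level of each of the 10 genes in CPM (y axis, linear, from 0) in the 12 libraries; points are libraries, black lines are group means and bars are SD of 3 replicates. PIR3 and SPI1 are close to 0 in both WT groups, and UTR2 is the gene whose tup1(S649F) points lie below the WT points.

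PIR3 had the highest fold change of the 10 genes. In WT MATa its 3 libraries were at 6.452, 7.788 and 8.182 CPM, and in tup1(S649F) MATa at 238.2, 286.3 and 246.8 CPM. In WT MATalpha they were at 7.08, 8.551 and 8.902 CPM, and in tup1(S649F) MATalpha at 523, 554.4 and 484.7 CPM. Every mutant library was far above every WT library, and every mutant MATalpha library was above every mutant MATa library. The ratio of the group means was 34.4 in MATa and 63.7 in MATalpha, with log2 fold changes of 5.11 ± 0.11 (SE) and 6.01 ± 0.11. These placed PIR3 25th from the highest of 5654 genes in MATa and 30th in MATalpha.

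PIR1 lies next to PIR3 on chromosome XI, and the pair is read in opposite directions from an intergenic stretch of 1581 base pairs. PIR1 was at 981.9, 1037 and 1062 CPM in WT MATa and at 1657, 1713 and 1599 CPM in tup1(S649F) MATa, a log2 fold change of 0.69 ± 0.09. In MATalpha it was at 983.4, 1037 and 1064 CPM in WT and at 1091, 1386 and 1214 CPM in tup1(S649F), a log2 fold change of 0.26 ± 0.09. The MATalpha groups came close to each other, and this change failed the threshold under upper-quartile scaling (log2 fold change 0.11), without replicate 1 of WT MATalpha (0.23) and without replicate 2 of tup1(S649F) MATalpha (0.16). Per kilobase, the PIR3 level was a ratio of 0.00762 ± 0.000635 (SD, n = 3) to that of PIR1 in WT MATa and of 0.163 ± 0.0123 in tup1(S649F) MATa. In MATalpha the ratio was 0.00833 ± 0.000673 in WT and 0.447 ± 0.0483 in tup1(S649F), so PIR1 stayed the higher gene of the pair in all 4 groups.

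HSP150 (also called PIR2), a heat-inducible PIR protein, lies on chromosome X and is convergent with CIS3 (also called PIR4) at a distance of 574 base pairs. HSP150 was at 2204, 2252 and 2222 CPM in WT MATa and at 3898, 4404 and 4014 CPM in tup1(S649F) MATa. The MATalpha libraries were at 2350, 2524 and 2465 CPM in WT and at 4662, 4573 and 4437 CPM in tup1(S649F). The log2 fold changes of HSP150 were 0.88 ± 0.09 in MATa and 0.90 ± 0.09 in MATalpha. CIS3 was at 556.8, 584 and 588.5 CPM in WT MATa and at 969.2, 1004 and 896.5 CPM in tup1(S649F) MATa, a log2 fold change of 0.73 ± 0.08. In MATalpha it was at 579.6, 574.3 and 614.4 CPM in WT and at 1370, 1571 and 1300 CPM in tup1(S649F), a log2 fold change of 1.26 ± 0.08. For both genes the mutant libraries stood clear of WT. The mutant MATalpha libraries of CIS3 lay above its mutant MATa libraries. Those of HSP150 did so only narrowly, the lowest at 4437 CPM against 4404, and HSP150 was not called in that contrast. The 4 PIR genes together took 0.384% ± 0.00763 of the reads in WT MATa, 0.698% ± 0.0374 in tup1(S649F) MATa, 0.407% ± 0.0132 in WT MATalpha and 0.772% ± 0.0331 in tup1(S649F) MATalpha.

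CRH1 and UTR2 encode related transglycosylases that join chitin to beta-glucan, and they moved in opposite directions. CRH1 was at 528.3, 522.5 and 535.1 CPM in WT MATa and at 1085, 1276 and 1155 CPM in tup1(S649F) MATa, a log2 fold change of 1.15 ± 0.08. Among MATalpha cells it was at 537.9, 587 and 600 CPM in WT and at 1741, 1804 and 1538 CPM in tup1(S649F), a log2 fold change of 1.56 ± 0.08. The CRH1 levels of WT, mutant MATa and mutant MATalpha were thus separate, and WT MATalpha lay just above WT MATa. UTR2 was at 801.2, 810.1 and 820.4 CPM in WT MATa and at 567.4, 548.8 and 529.4 CPM in tup1(S649F) MATa, a log2 fold change of -0.56 ± 0.09. In MATalpha it was at 833.6, 874.4 and 909.4 CPM in WT and at 230.6, 316.2 and 266.1 CPM in tup1(S649F), a log2 fold change of -1.69 ± 0.09. All UTR2 libraries of the mutant lay below all WT libraries, with the mutant MATalpha libraries the lowest. In MATalpha UTR2 was 9th from the lowest of 5654 genes by log2 fold change, and in MATa 118th.

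Per kilobase, UTR2 was above CRH1 in WT and below it in the mutant. The ratio of UTR2 to CRH1 was 1.66 ± 0.0183 (SD, n = 3) in WT MATa and 1.65 ± 0.0329 in WT MATalpha. It was 0.511 ± 0.0517 in tup1(S649F) MATa and 0.174 ± 0.0261 in tup1(S649F) MATalpha. The ratio lies within a library, so library scaling does not enter it.

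**Figure D2:**
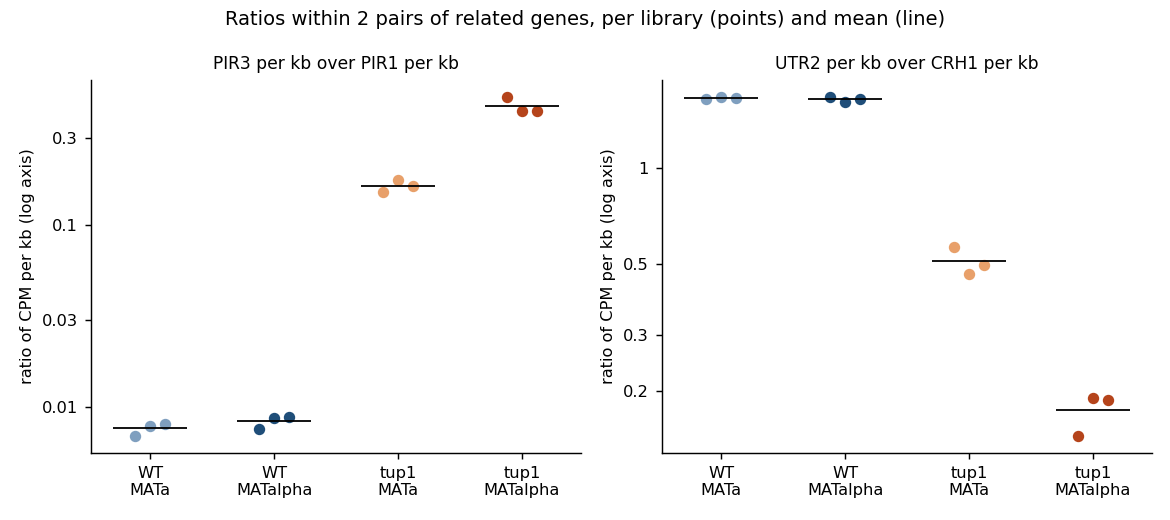
Ratio of the levels per kilobase (log y axis) of PIR3 to PIR1 and of UTR2 to CRH1 in each of the 12 libraries (points), with the mean of 3 replicates as a line. The ratio of PIR3 to PIR1 rises from means of 0.00762 and 0.00833 in WT to 0.163 and 0.447 in tup1(S649F), and that of UTR2 to CRH1 falls from 1.66 and 1.65 to 0.511 and 0.174.

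SPI1 and SED1 encode related GPI wall proteins rich in serine and threonine; SED1 is abundant in stationary phase and SPI1 is induced by weak acids and nutrient limitation. SPI1 was at 5.974, 6.28 and 6.518 CPM in WT MATa and at 153.5, 204.8 and 196.1 CPM in tup1(S649F) MATa. In MATalpha SPI1 was at 8.751, 8.691 and 9.05 CPM in WT and at 143.3, 164.9 and 142.5 CPM in tup1(S649F). The mutant libraries were all far above WT, and the 2 mutant groups overlapped each other. The ratio of the means was 29.5 in MATa and 17 in MATalpha, with log2 fold changes of 4.88 ± 0.13 and 4.09 ± 0.12. By these SPI1 was 30th from the highest gene in MATa and 85th in MATalpha.

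SED1 was at 1056, 1200 and 1158 CPM in WT MATa and at 2820, 3795 and 3878 CPM in tup1(S649F) MATa, a log2 fold change of 1.62 ± 0.12. The low mutant library is replicate 1, which stood apart over all genes; without it the log2 fold change in MATa was 1.76 for SED1 and 5.01 for SPI1, and those of the other 8 genes moved by less than 0.1. In MATalpha SED1 was at 1410, 1467 and 1511 CPM in WT and at 7372, 6670 and 6197 CPM in tup1(S649F), a log2 fold change of 2.21 ± 0.12. SED1 and HSP150 overlapped per kilobase in tup1(S649F) MATa, at means of 3439 and 3305, and in tup1(S649F) MATalpha SED1 was above HSP150 in every library, at 6634 against 3669. In WT the order of these 2 genes was the opposite.

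PST1, a GPI protein of the Ecm33 family that wall stress induces, was at 199.2, 213.7 and 210.8 CPM in WT MATa and at 426.7, 448.3 and 443.1 CPM in tup1(S649F) MATa. In MATalpha it was at 203.1, 205.6 and 208.9 CPM in WT and at 788.8, 814.3 and 706.4 CPM in tup1(S649F). The log2 fold changes were 1.08 ± 0.07 in MATa and 1.90 ± 0.07 in MATalpha, and the WT values of the mating types overlapped. YGP1, a secreted glycoprotein that rises when nutrients run out, was at 75.39, 70.59 and 56.02 CPM in WT MATa and at 217.1, 216.9 and 233 CPM in tup1(S649F) MATa. In MATalpha YGP1 was at 50.93, 60.7 and 58.01 CPM in WT and at 376.7, 408.1 and 278.8 CPM in tup1(S649F). The log2 fold changes of YGP1 were 1.72 ± 0.13 in MATa and 2.65 ± 0.14 in MATalpha, and its 3 mutant MATalpha libraries were the most spread of the 4 groups.

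**Figure D3:**
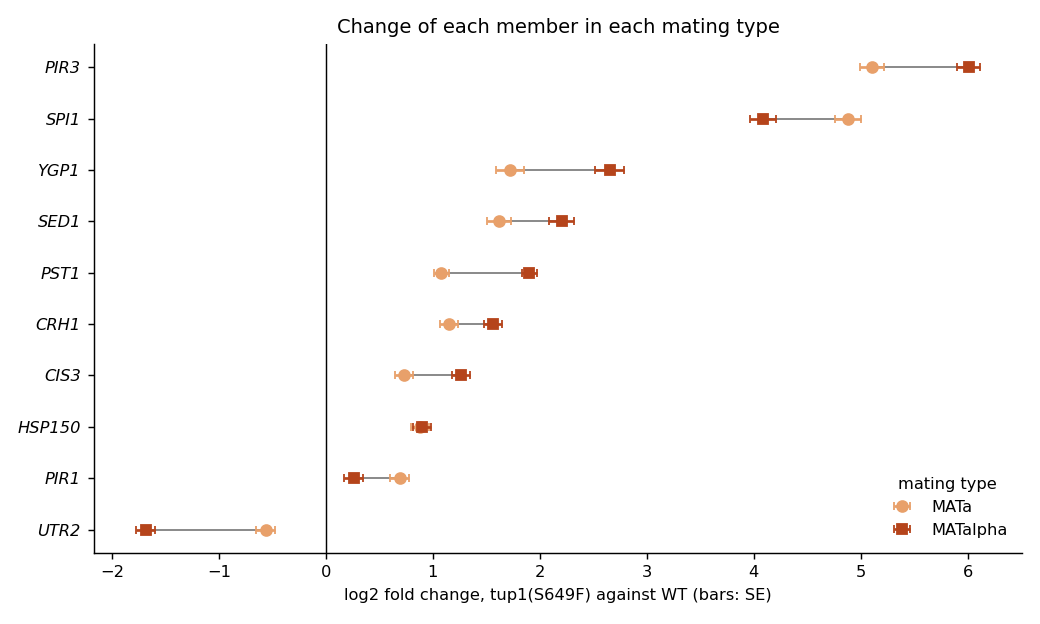
Log2 fold change of tup1(S649F) against WT (x axis) for each of the 10 genes (y axis) in MATa (circles) and MATalpha (squares), with bars of 1 SE. PIR3 and SPI1 lie above 4 in both mating types and UTR2 lies below 0 in both, at -0.56 and -1.69.

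The log2 fold change in MATalpha minus that in MATa, the interaction, passed the threshold for 9 of the 10 genes and for 23.9% of all genes tested. It is computed from the 2 comparisons that were in view when the genes were listed, so it is a description and no p-value is given. The difference was positive for 6 of the 9 genes. On the log2 scale the effect in MATalpha exceeded that in MATa by 0.93 ± 0.19 for YGP1, 0.90 ± 0.18 for PIR3 and 0.82 ± 0.10 for PST1. It exceeded it by 0.59 ± 0.16 for SED1, 0.53 ± 0.11 for CIS3 and 0.41 ± 0.12 for CRH1. CRH1 did not pass without replicate 1 of WT MATalpha (0.36). Without replicate 1 of tup1(S649F) MATa the difference was 0.44 for SED1 and 0.91 for YGP1, and all 6 still passed.

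The other 3 differences had a negative sign. UTR2 was lower by more in MATalpha, with a difference of -1.12 ± 0.13, and ranked 25th from the lowest gene in this contrast. The fold change of SPI1 was smaller in MATalpha (-0.79 ± 0.20), and so was that of PIR1 (-0.43 ± 0.12). For HSP150 the difference was 0.01 ± 0.12, and its sign changed with the scaling and with single libraries. PIR1 and PIR3, on either side of 1 intergenic stretch, thus differed between mating types in opposite directions.

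Within tup1(S649F) cells, MATalpha was compared directly with MATa, a contrast in which 35.0% of all genes tested were called. With only the tup1(S649F) libraries fitted, 23.6% were called. PIR3 (log2 difference 1.02 ± 0.08, adjusted p = 4.35e-09), SED1 (0.95 ± 0.11, adjusted p = 2.57e-06) and PST1 (0.81 ± 0.07, adjusted p = 1.67e-08) were higher in MATalpha. YGP1 (0.67 ± 0.12, adjusted p = 0.000778), CIS3 (0.56 ± 0.08, adjusted p = 2.09e-05) and CRH1 (0.53 ± 0.08, adjusted p = 5.6e-05) were also higher there. UTR2 (-1.02 ± 0.09, adjusted p = 4.85e-08) and PIR1 (-0.43 ± 0.09, adjusted p = 0.00074) were lower in MATalpha. SPI1 was lower too (-0.30 ± 0.09, adjusted p = 0.0119), with overlapping groups, and its call was lost without replicate 2 (-0.22, adjusted p = 0.0729) or replicate 3 (-0.25, adjusted p = 0.0512) of tup1(S649F) MATa, and with only the tup1(S649F) libraries fitted (-0.29, adjusted p = 0.0711). HSP150 was not called (0.15 ± 0.08, adjusted p = 0.179), and DESeq2 called it (0.16, adjusted p = 0.0222). The tup1(S649F) MATalpha libraries differ from the MATa libraries also in expressing both a-specific and alpha-specific genes, as given above, and the part of this in the differences was not tested.

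The order of levels per kilobase changed in the mutant. In tup1(S649F) MATalpha SED1 was first at 6634 CPM per kilobase, followed by HSP150 at 3669 and CIS3 at 2066. PIR1 at 1199 and CRH1 at 1112 overlapped, as did PST1 at 576.6 and PIR3 at 532.4, and SPI1 at 336.1 and YGP1 at 332.9. UTR2, in the middle of the order in WT, was last at 193. In tup1(S649F) MATa, SPI1 at 413.5 and UTR2 at 390.7 overlapped, above PST1 at 329.1, PIR3 at 262.9 and YGP1 at 208.8.

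The annotated gene on each side of every one of the 10 was compared in the same fit. PIR5, the PIR gene divergent from HSP150 and known as a sporulation gene, has 4 repeats and stayed low, at 1.764 CPM in WT MATa and 3.635 in tup1(S649F) MATa (log2 fold change 1.05 ± 0.29, adjusted p = 0.00709), and at 1.767 and 3.644 in MATalpha (1.09 ± 0.30, adjusted p = 0.00368). CYC7, the cytochrome c isoform of cells short of oxygen, is convergent with UTR2 at 179 base pairs and rose, from 4.25 to 29.59 CPM in MATa (2.8 ± 0.21, adjusted p = 5.68e-09) and from 5.388 to 35.81 CPM in MATalpha (2.71 ± 0.20, adjusted p = 2.38e-09). FAR1, which arrests the cell cycle in response to pheromone, lies beside CIS3. It was at 165, 156.6 and 159.6 CPM in WT MATa and at 162.6, 158.6 and 148.7 CPM in tup1(S649F) MATa (log2 fold change -0.03, adjusted p = 0.831). In MATalpha it was at 167.2, 154.6 and 163.2 CPM in WT and at 398.3, 267.8 and 381.6 CPM in tup1(S649F) (1.11 ± 0.11, adjusted p = 1.43e-07). The difference between mating types was 1.14 ± 0.15 (adjusted p = 5.07e-05), and CIS3 was higher in both mating types where FAR1 was called in MATalpha. The uncharacterized YKL162C beside PIR3 rose by log2 fold changes of 0.68 and 0.96, and the other neighbours changed by less than 1 on the log2 scale in both mating types, among them EMC10, 161 base pairs from the end of PST1, and SHU2, 388 base pairs from that of SED1, which were not called in either; upper-quartile scaling called both lower in MATalpha (-0.26 and -0.68).

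Genes of the wider wall and stress pathways were counted list by list, and the counts are to be set beside those of all genes tested, of which 1395 were called higher and 947 lower in MATa and 1810 higher and 1755 lower in MATalpha. Some genes stand in more than 1 list. All lists, here and below, were chosen with earlier results of these data known. Their counts are therefore a description, and the p-values of their genes are not independent of that choice. Of 16 other known or likely targets of the wall integrity pathway, 14 were higher in MATa and all 16 in MATalpha, none was lower, and the median log2 fold change was 0.50 and 1.49. The interaction was called and positive for 14 of these 16, and for 701 of the 5654 genes tested, with 648 called negative. GSC2, the glucan synthase subunit induced by wall stress, was at 265.5, 247.4 and 263.6 CPM in WT MATa and 1038, 958.5 and 898.7 CPM in tup1(S649F) MATa (log2 fold change 1.90 ± 0.08, adjusted p = 4.64e-13). In MATalpha GSC2 was at 216.3, 233.4 and 238.9 CPM in WT and 2555, 2324 and 2177 CPM in tup1(S649F) (3.36 ± 0.09, adjusted p = 9.69e-17). The log2 fold changes of PRM5, a membrane protein, were 0.51 and 1.90 (difference 1.39 ± 0.13, adjusted p = 2.98e-07), and those of the wall protease gene YPS3 1.80 and 2.73 (0.93 ± 0.11, adjusted p = 5.08e-06). CWP1, a GPI mannoprotein, rose by 2.06 and 1.85 with no called difference (adjusted p = 0.285).

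Of 23 sensors and members of the kinase cascade, 13 were higher and 1 lower in MATa, and 14 were higher and 3 lower in MATalpha. BAG7 (4.08 and 4.17), the phosphatase gene SDP1 (3.48 and 2.84) and the sensor gene MTL1 (1.92 and 2.07) had high log2 fold changes in MATa and MATalpha. The list mixes sensors, phosphatases and kinases, so its counts do not stand for the kinases alone. PKC1 was at -0.01 and -0.33, called lower in MATalpha. Mean CPM in WT and tup1(S649F) MATa was 72.69 and 60.65 for BCK1, 57.31 and 56.37 for MKK1, and 33.59 and 32.07 for MKK2. In MATalpha these were 78.89 and 52, 62.71 and 55.27, and 32 and 28.78. SLT2 went from 84.79 to 84.74 in MATa and from 83.44 to 137.1 in MATalpha, and KDX1 was higher in both.

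Glucan and chitin genes were called higher more often than lower. Of 27 glucan genes tested 20 were higher in MATa and 22 in MATalpha, with 0 and 1 lower. NCA3 (4.96 and 4.65), a SUN family gene, the glucanase gene SCW10 (1.40 and 2.09) and KNH1 (1.84 and 1.42), a gene of beta-1,6-glucan synthesis, were among them. Of 15 chitin genes tested 6 were higher and 1 lower in MATa, and 10 were higher and 2 lower in MATalpha. GFA1, the first enzyme of the path to chitin precursors, rose by 0.49 and 1.44 (difference 0.95 ± 0.11, adjusted p = 3.41e-06), and CHS1, a chitin synthase that repairs the septum, by 0.44 and 1.36 (0.92 ± 0.10, adjusted p = 2.58e-06). CTS1, the chitinase of cell separation, rose by 0.79 and 0.61, and CDA1, a sporulation chitin deacetylase, was called in MATalpha (1.6, adjusted p = 0.00909), a call lost without replicate 1 of WT MATalpha (1.07, adjusted p = 0.0792). Under upper-quartile scaling the lower calls in MATalpha were 5 of the chitin genes, 2 of the glucan genes and 7 of the cascade genes.

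Of 20 other mannoproteins and wall-linked proteins tested, 16 were higher in MATa and 18 in MATalpha, and none was lower. The GPI protein gene TIP1 (3.28 and 3.33), SPS100 (3.74 and 3.64), a sporulation gene related to YGP1, and PRY1 (2.36 and 2.33), a secreted sterol-binding protein gene, were among them, as was YPS3. The 13 daughter cell separation genes split in MATalpha, with 3 higher and 8 lower, and in MATa 6 were higher and 1 lower. ASH1 rose by 0.50 and 0.58 and SCW11 by 0.49 and 0.47, whereas PRY3 was at -0.33 (adjusted p = 0.182) in MATa and fell in MATalpha (-0.89, adjusted p = 0.00125). PRY3 was also called lower in MATa with only the groups compared (-0.32, adjusted p = 0.0136) and without replicate 1 of tup1(S649F) MATalpha (-0.33, adjusted p = 0.013). The single lower gene in MATa was not called in DESeq2 or in most fits with a library left out.

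Of 24 general stress genes, 23 were higher in MATa and 24 in MATalpha, with medians of 1.59 and 1.85. Their summed level was 1563 to 1709 CPM in WT MATa, 1505 to 1551 in WT MATalpha, 4444 to 5185 in tup1(S649F) MATa and 4973 to 5694 in tup1(S649F) MATalpha, with no gene at 0 in any group. HSP12, a membrane stress protein (6.11 and 5.46), DDR2 (5.31 and 4.47) and the chaperone gene HSP26 (4.38 and 4.6) had the highest log2 fold changes. The part of a general stress response in the levels of the 10 genes was not tested.

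**Figure D4:**
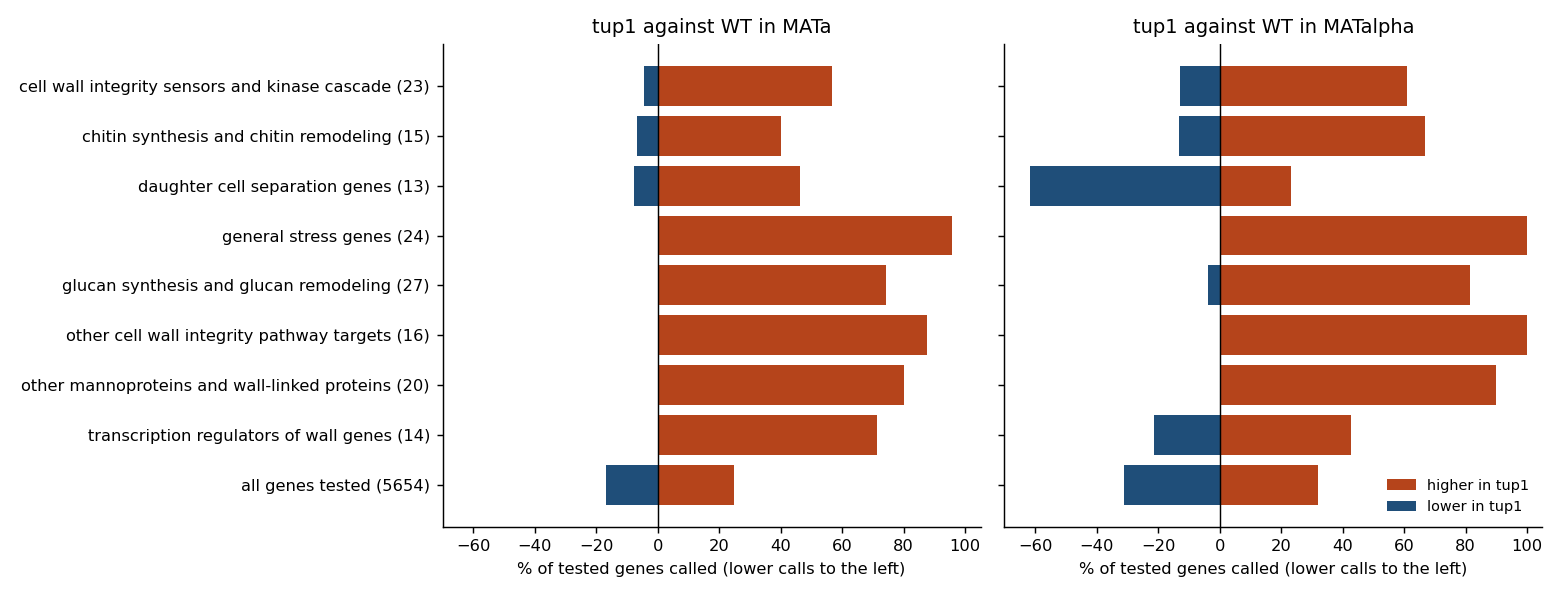
Share of the tested genes of each list that were called higher (to the right) or lower (to the left) in tup1(S649F) than in WT, at an adjusted p of 0.05, for MATa and MATalpha; the number tested is in brackets, and the lowest bar shows all genes tested. All 16 of the other wall integrity targets and all 24 general stress genes are higher in MATalpha, and the daughter separation genes are the list with 8 of 13 lower. The lists were chosen with earlier results of these data known.

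Of 14 genes for transcription factors that act on wall genes, 10 were higher and none lower in MATa, and 6 were higher and 3 lower in MATalpha. NRG1, a repressor that works through Tup1, was the most changed: it was at 10.87, 11.56 and 12.06 CPM in WT MATa and 52.81, 60.65 and 70.26 CPM in tup1(S649F) MATa (log2 fold change 2.42 ± 0.14, adjusted p = 1.6e-10). In MATalpha NRG1 was at 11.7, 11.07 and 18.1 CPM in WT and 89.15, 82.29 and 78.32 CPM in tup1(S649F) (2.63 ± 0.14, adjusted p = 1.55e-11). Its relative NRG2 rose by 0.97 and 1.07, and MSN4, a stress activator, by 1.43 and 1.6. RLM1, whose protein binds the element printed for 4 of the genes, rose by 0.71 ± 0.11 (adjusted p = 5.72e-05) and 0.49 ± 0.11 (adjusted p = 0.000854). SOK2, a regulator of filamentous growth, rose by 1.18 and 0.52, and RIM101, the regulator of the alkaline response, by 0.43 and 0.36.

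The other factors were called in 1 mating type or in neither. MSN2 (0.46 and 0.01), HAA1 (0.40 and -0.01), an activator of weak acid response genes that include SPI1 and YGP1, PHD1 (0.47 and -0.06) and SWI4 (0.31 and 0.15) were called higher in MATa and not called in MATalpha. The difference itself passed for MSN2 (adjusted p = 0.0126). It did not pass for SWI4 (-0.16, adjusted p = 0.325), which was called in MATalpha too without replicate 1 of tup1(S649F) MATa (0.15, adjusted p = 0.0288). It passed for HAA1 (adjusted p = 0.0195) but not without replicate 1 of WT MATalpha (adjusted p = 0.0544) or replicate 2 of tup1(S649F) MATa (adjusted p = 0.0568). It passed for PHD1 (adjusted p = 0.0233) but not without replicate 1 or 3 of WT MATa, replicate 3 of WT MATalpha or replicate 2 or 3 of tup1(S649F) MATa, where the adjusted p ran from 0.0506 to 0.0646. SKN7 (-0.11 and -0.43) and SWI6 (-0.19 and -0.46) were called lower in MATalpha and not called in MATa, while SWI5 (0.11 and -0.06) was called in neither. Upper-quartile scaling also called SKN7 (-0.22) and SWI6 (-0.29) lower in MATa.

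The genes outside the 10 whose pattern lay nearest to the genes with the highest fold changes were found by the Euclidean distance over 3 values: the log2 fold changes in MATa and in MATalpha and the WT difference between mating types. Nearest to PIR3 were FLO1, a flocculin gene that shares sequence with FLO5 and FLO9 (distance 0.55, log2 fold changes 4.97 and 5.66), ATR2, related to the boron transporter gene ATR1 (distance 0.65, log2 fold changes 5.16 and 6.20) and FDH1, a formate dehydrogenase gene (0.66, 5.65 and 6.01). FDH1 was low throughout, at 0.0881 CPM in WT MATa and 5.174 CPM in tup1(S649F) MATa. Nearest to SPI1 were the uncharacterized TDA8 (0.37, 4.66 and 3.85), the mitochondrial NADH dehydrogenase gene NDE2 (0.45, 4.85 and 4.49) and FIT2, a GPI wall protein gene of iron uptake (0.53, 4.68 and 3.95).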

How the data were processed

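Stranded, ribosomal RNA-depleted total RNA libraries were sequenced from paired ends, per the labels' protocols. The authors deposited raw read counts for each gene and each of the 12 libraries. cutadapt 2.8, STAR 2.7.3 and featureCounts 1.6.3 of Subread, with builds sacCer3 and R64, are named in the submitters' processing notes. Their roles, the strand setting of the counting and its treatment of multi-mapping reads are not given in the sources. Such reads, from near-identical stretches, can be split between copies or dropped.

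Identifiers matched the R64 annotation for 5843 of the 6219 genes. Genes were filtered with filterByExpr at a minimum count of 10, libraries were scaled by TMM, and 1 quasi-likelihood fit of the 4 group means (edgeR 4.0.16 in R 4.3.3, robust, 8 residual degrees of freedom) gave 5 two-sided contrasts. The Benjamini-Hochberg adjustment took in the 5654 genes tested, with a threshold of 0.05; a gene past it is said to be called. Levels are CPM with TMM factors, per kilobase of coding length where genes are compared. The SE of a log2 fold change is its size divided by the square root of F. The procedure was also run on simulated counts drawn with the spread of WT MATa alone. That run does not cover the wider spread of the tup1(S649F) replicates.

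The 10 genes and all gene lists were chosen with earlier results of these data known. Named besides the 10 are the listed regulators except 1 that is not reported here, the 3 called genes with the largest change in each other list and mating type (a selection is printed), the neighbours and the nearest patterns. Kinase genes of the cascade list are named as well. Motifs and repeats were searched with Biopython 1.88. Alternatives were DESeq2 1.42.0, RLE and upper-quartile scaling, no filter, only the groups compared, a replicate block and each library left out.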

Additional observations from a re-analysis of the deposited data

Results flagged for a closer look

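In the interaction test in edgeR (Benjamini-Hochberg adjustment over all genes) 9 of the 10 wall genes passed the threshold, as did 23.9% of all genes tested. Several of the other genes named passed too. For the 10 genes this test uses the 2 comparisons that were in view when they were listed. It is thus a description of them and not independent of their choice. The other lists were also chosen with earlier results of these data known. As log2 differences, MATalpha minus MATa, the values among the 10 were -1.12 for UTR2, -0.79 for SPI1, -0.43 for PIR1, 0.41 for CRH1, 0.53 for CIS3, 0.59 for SED1, 0.82 for PST1, 0.90 for PIR3 and 0.93 for YGP1. Among wall genes of the other lists they were 1.46 for GSC2, 1.39 for PRM5, 0.95 for GFA1, 0.93 for YPS3, 0.92 for CHS1 and 0.70 for SCW10. Among the regulators they were -0.66 for SOK2, -0.53 for PHD1, -0.44 for MSN2, -0.42 for HAA1 and -0.32 for SKN7. Among the neighbours they were 1.14 for FAR1, -0.31 for MCD4 and -0.67 for PEA2.

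The difference of PEA2 (adjusted p = 0.0338), the divergent neighbour of SPI1 that acts in polarized growth, and that of MCD4 (adjusted p = 0.0426), the neighbour of PIR1 that acts in GPI anchor synthesis, each fell short of the threshold in most fits with a library left out. That of SKN7 fell short without replicate 1 of WT MATa (adjusted p = 0.0505) or replicate 2 of tup1(S649F) MATa (adjusted p = 0.0513).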

How the results depend on the processing

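Of the 10 wall genes, each kept its direction and its side of the threshold in MATa under all alternatives run, and in MATalpha under all but the 3 given above for PIR1. With a library left out, the number of the 10 called was 10 in MATa, 9 to 10 in MATalpha, 8 to 9 for the interaction, 8 to 9 for MATalpha against MATa in tup1(S649F) and 0 to 2 for that contrast in WT. The WT contrast depended most on the setting: with only the WT groups fitted, 5 of the 10 and 1091 of all genes were called in place of 0 and 51, and leaving out a library gave 24 to 399 of all genes, the highest without replicate 1 of tup1(S649F) MATa. With a library left out, all genes called ran from 1860 to 2503 in MATa and 3190 to 3784 in MATalpha. They ran from 1050 to 1960 for the interaction and from 1676 to 2209 in tup1(S649F). With only the tup1(S649F) groups fitted, 1325 were called.

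Upper-quartile scaling moved the median log2 fold change of all genes to -0.12 in MATa and -0.18 in MATalpha, and the higher share of the calls from 59.6% to 38.5% and from 50.8% to 37.5%. Some values that were not called changed sign. The HSP150 interaction was -0.029 under upper-quartile scaling and -0.032 to 0.067 with a library left out. The WT difference of PIR1 was -0.0072 with DESeq2 and with RLE scaling, -0.0058 without the filter and -0.031 to 0.033 with a library left out. That of PST1 was 0.0026 under upper-quartile scaling and -0.045 to 0.0073 with a library left out. In MATalpha upper-quartile scaling gave -0.028 for MCD4, -0.14 for MSN2 and -0.0052 for ASI2. With a library left out, the MATa values ran from -0.24 to 0.079 for BUB1, -0.053 to 0.0017 for FAR1, -0.11 to 0.017 for CBK1 and -0.43 to 0.43 for CDA1. CDA1 had only 1 to 8 counts in each MATa library. The MATalpha values with a library left out ran from -0.12 to 0.042 for SWI5, -0.039 to 0.087 for MSN2 and -0.10 to 0.053 for HAA1. The cause was not tested.

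Replicates of the same number did not deviate together (correlations -0.292 to 0.121). With a replicate block, 10, 10, 9, 0 and 9 of the 10 genes were called in the 5 contrasts, and 2234, 3497, 1269, 35 and 1893 of all genes. Depth did not leave any of the 10 genes out, and PIR3 and SPI1 in WT rest on the fewest reads.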
